A study of Mus musculus with 16 samples.

Results

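The RNA of 9 genes was followed here through 16 RNA sequencing libraries of mouse T cells: 8 that encode amino acid transporters of the plasma membrane (Slc7a5, Slc3a2, Slc1a5, Slc38a1, Slc38a2, Slc7a1, Slc7a6 and Slc1a4) and Myc, the transcription factor gene linked to growth of activated T cells. They were chosen by name, as transporters known to be induced when T cells are activated, and are 9 of 54456 gene rows in the deposited count table. All 9 names are in the table, and 8 of the 9 passed the filter on low counts. Slc1a4 did not.

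The cells were OT-I T cells, which carry a transgenic receptor for a peptide of ovalbumin and are mostly CD8 T cells. In every group the T cells came from OT-I mice, and the codes of all libraries contain Neg-OVA, a term left unexplained in the labels. The 4 groups, each of 4 libraries, were T cells of visceral adipose tissue (VAT) of mice on a high-fat diet (HFD), T cells of lymph node (LN) of mice on HFD, T cells of VAT of lean mice, and T cells of LN of lean mice. HFD supplied 60% of its calories from fat, lean mice had standard chow, and both diets lasted 8 weeks. The labels call the cells freshly isolated, while the series' design text says that they were kept overnight in culture before the T cells were sorted. A change that culture makes to activation and nutrient genes cannot be told apart from the state of the cells in the tissue. The titles number the libraries of a group as biological replicates, but the labels give no age, sex or pooling of the animals and do not say whether each library came from another animal, so the p-values rest on the spread between these libraries.

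A growing T cell needs amino acids to build protein, and it takes them up through carriers that are placed on its surface after its receptor is triggered. Slc7a5 and Slc3a2 encode the light and heavy chains of the CD98 complex, which brings in leucine and other large neutral amino acids in exchange for glutamine, and the heavy chain also pairs with other light chains of the Slc7 family. In mouse T cells uptake through Slc7a5 is known to be needed for sustained Myc protein and for activity of the kinase complex built around mTOR, and Myc in turn is known to raise the RNA of several of these carriers.

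Library totals were 40212388 to 51726642 counts in HFD VAT, 42444506 to 54019116 in HFD LN, 42993946 to 63617074 in lean VAT and 49323455 to 65957407 in lean LN. Levels are given as CPM, counts scaled to a common total by TMM-normalised library size, in which 3 counts of a library are 0.0436 to 0.0802 CPM. The T cell label was met: all 13 T cell markers had counts in every group, and their summed level was 15508 to 17206 CPM in HFD VAT, 14098 to 16118 in HFD LN, 13560 to 18484 in lean VAT and 13570 to 16547 in lean LN. Single markers moved with tissue: edgeR called 1 higher and 1 lower in VAT on HFD, and 1 higher and 2 lower in lean mice. Cd8a averaged 2072 CPM in HFD VAT against 663 in HFD LN, and 1836 in lean VAT against 716 in lean LN. Cd8b1 was lower in VAT, at 1225 against 2067 CPM on HFD and 1365 against 2053 in lean mice. Cd5, uncalled, was at 14.3 against 133 CPM on HFD and 13.45 against 185 in lean mice. Of the other cell types, B cell markers differed most between tissues in summed CPM, with 169 to 359 CPM in HFD VAT (12 of 13 markers with a count) against 1764 to 2650 in HFD LN (13 of 13), and 85.5 to 220 in lean VAT (11 of 13) against 1633 to 3137 in lean LN (13 of 13). In missing genes 3 VAT libraries stood apart: of the genes with a median of 10 CPM or more in the rest of the group, replicates 1 and 3 of HFD VAT had 11.4% and 11.5% at 3 counts or fewer, and replicate 1 of lean VAT had 13.3%, against at most 5.44% in any other library.

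Slc3a2, the heavy chain of CD98, was the member that differed between tissues. Its RNA was 829, 648, 918 and 642 CPM in the 4 HFD VAT libraries, against 146, 282, 141 and 189 CPM in HFD LN. Every HFD VAT library lay above every HFD LN library. The means were 759 ± 137 CPM in HFD VAT and 190 ± 65.4 CPM in HFD LN (SD, n = 4 each), a 4.00-fold difference, or a log2 fold change of 2.00 with a 95% interval of 1.49 to 2.51 (edgeR quasi-likelihood test, Benjamini-Hochberg adjusted p = 0.000151).

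The same gene was higher in VAT of lean mice. Lean VAT libraries held 547, 732, 691 and 617 CPM of Slc3a2, against 203, 170, 145 and 240 CPM in lean LN, again with no overlap. The mean was 647 ± 82.0 CPM in lean VAT and 190 ± 41.4 CPM in lean LN (SD, n = 4 each), which is 3.41-fold or a log2 fold change of 1.77 (95% interval 1.27 to 2.27, edgeR adjusted p = 0.000493). Both calls held in all 25 other settings tried: the log2 fold change lay between 1.75 and 2.26 on HFD and between 1.65 and 1.90 in lean mice. Without the 3 VAT libraries with the most missing genes it was 1.75 on HFD (edgeR adjusted p = 0.00456) and 1.81 in lean mice, and both remained called.

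Diet made no detectable difference to Slc3a2 in either tissue. Between HFD VAT and lean VAT the log2 fold change was 0.23, with a 95% interval of -0.26 to 0.72, and the libraries of the groups overlapped. Between HFD LN and lean LN it was 0.00, with an interval of -0.49 to 0.49. The tissue difference on HFD exceeded that in lean mice by 0.23 on the log2 scale, with an interval of -0.46 to 0.92 (edgeR adjusted p of 1.0 for the difference itself). These intervals leave room for changes of up to 1.65-fold in VAT and 1.40-fold in LN.

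**Figure D1:**
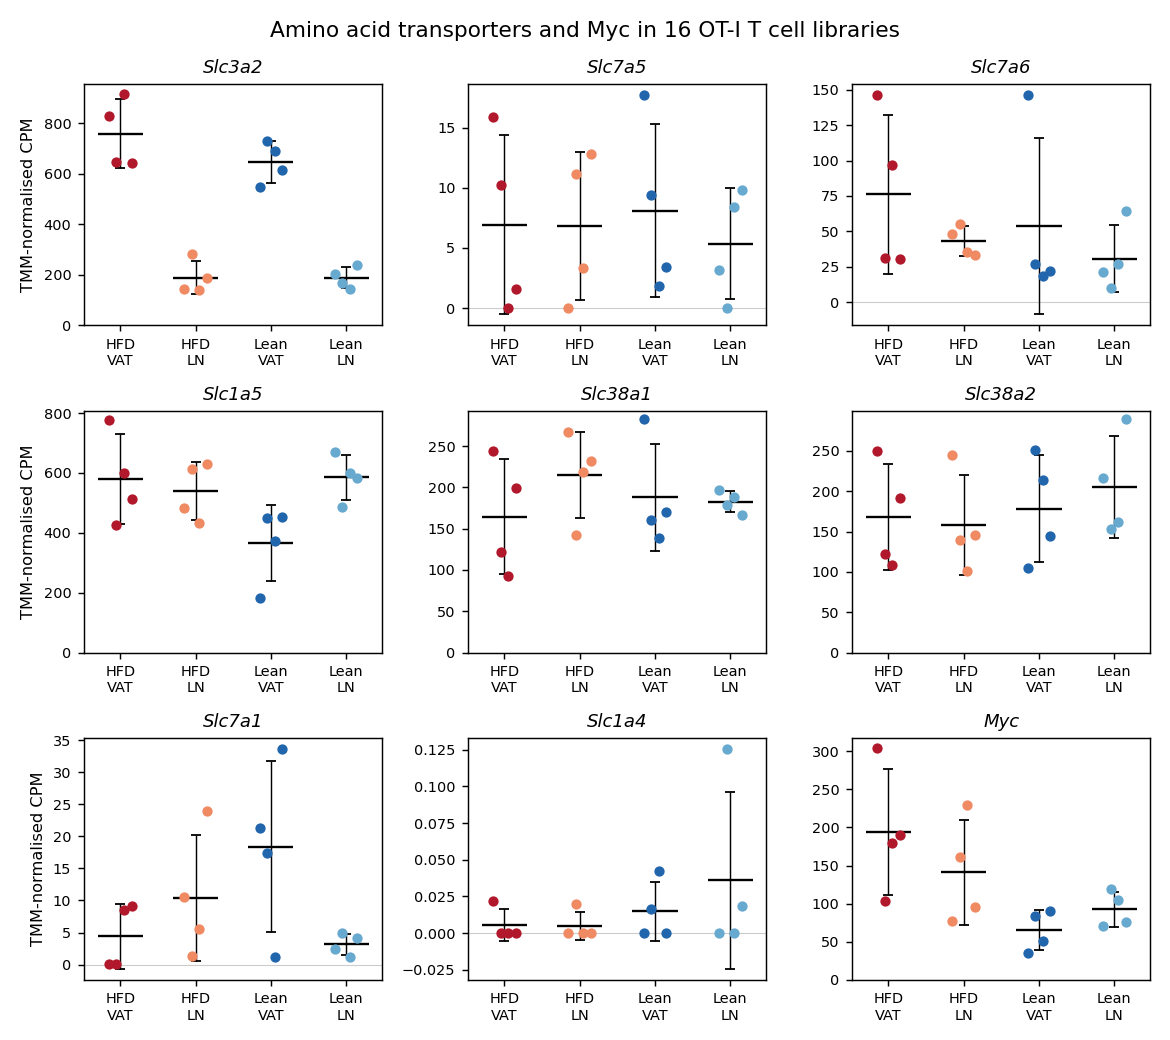
Level of the 9 genes in TMM-normalised CPM (vertical axis, a separate scale for each gene) in the 4 groups, with 1 point per library; the horizontal bar is the mean and the error bar the SD over 4 libraries. Slc3a2 is at 547 to 918 CPM in the 8 VAT libraries and at 141 to 282 CPM in the 8 LN libraries, while for Slc7a5 the groups overlap.

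The counts behind these values are large, 128597 reads on Slc3a2 over the 4 HFD VAT libraries, 38319 in HFD LN, 126395 in lean VAT and 43854 in lean LN, so counting error is small beside the spread between libraries. In bulk RNA, fewer cells that express a gene and less RNA of it per cell cannot be told apart. Other cell type markers also moved with tissue. Besides the B cell markers given above, the summed NK cell markers were 391 to 542 CPM in HFD VAT (5 of 6 markers with a count) against 19.2 to 120 in HFD LN (5 of 6), and 329 to 622 in lean VAT (6 of 6) against 13.8 to 104 in lean LN (4 of 6). The largest of them was Gzma, a protease gene that killer T cells also use, at a mean of 389 CPM in HFD VAT and 366 CPM in lean VAT, while Ncr1, a defining NK cell receptor, had no count in HFD VAT, HFD LN or lean LN and averaged 0.200 CPM in lean VAT. Klrb1c averaged 50.1 CPM in HFD VAT against 0.838 in HFD LN, and 21.2 in lean VAT against no count in lean LN. Klra8 was at 4.81 against 0.277 CPM on HFD and 4.98 against 0.200 CPM in lean mice. Klra4 was also higher in VAT, while Eomes was lower, at 25.1 against 44.8 CPM on HFD and 21.4 against 47.4 in lean mice. The summed dendritic cell markers were 59.7 to 110 CPM in HFD VAT (5 of 8) against 0.459 to 16.8 in HFD LN (6 of 8), and 35.0 to 82.3 in lean VAT (7 of 8) against 0.193 to 22.2 in lean LN (6 of 8). The summed macrophage markers were 33.4 to 130 CPM in HFD VAT (8 of 12) against 61.9 to 173 in HFD LN (5 of 12), and 39.7 to 78.5 in lean VAT (10 of 12) against 39.3 to 188 in lean LN (7 of 12), and C1qa had no count in any group. These sums were carried by a different gene in each tissue: Cd68 averaged 60.8 CPM in HFD VAT against 0.598 in HFD LN, and 38.7 in lean VAT against 1.58 in lean LN, while Apoe averaged 0.00568 CPM in HFD VAT against 124.6 in HFD LN, and 6.16 in lean VAT against 107.5 in lean LN. C1qb averaged 6.41 CPM in HFD VAT (highest library 25.6) and 0.02125 in lean VAT, with no count in LN. Lyz2 averaged 4.02 CPM in HFD VAT (highest library 16.1) and 4.43 in lean VAT (highest library 17.7), with no count in LN. Csf1r averaged 2.43 CPM in HFD VAT against no count in HFD LN, and 0.0163 in lean VAT against 0.0476 in lean LN. Markers of CD4 T cells summed to 48.7 to 175 CPM in HFD VAT against 23.1 to 44.9 in HFD LN, and 44.2 to 266 in lean VAT against 24.4 to 62.8 in lean LN (4 of 5 in each group). Most of the VAT sum was Ikzf2, a transcription factor gene, at a mean of 110.8 CPM in HFD VAT and 109.3 CPM in lean VAT. Cd40lg was lower in VAT, with no count in HFD VAT against 27.7 CPM in HFD LN, and 3.65 CPM in lean VAT against 28.4 CPM in lean LN. Cd4, which defines these cells, was at 0.0227 CPM in HFD VAT, 0.0110 in HFD LN, 0.00601 in lean VAT and 1.20 in lean LN. Adipose stromal, endothelial and adipocyte markers summed to 43.5 to 139 CPM in HFD VAT (6 of 10) against 124 to 204 in HFD LN (8 of 10), and 29.4 to 79.2 in lean VAT (6 of 10) against 71.0 to 167 in lean LN (7 of 10), and Adipoq, which defines adipocytes, had no count in HFD VAT, lean VAT or lean LN. The part of these other markers, or of the T cell markers that moved with tissue, in the Slc3a2 difference was not tested.

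The sequence just upstream of Slc3a2 is shown because it is the member that was called in both tissue comparisons. RefSeq entries on build GRCm38.p6 gave promoters for 5 of the 9 genes (7 entries). The 250 bases before the annotated start of Slc3a2, at chr19:8713898-8714147 on the minus strand, read as follows, with a GC box (GGGCGG) in capitals.
Slc3a2: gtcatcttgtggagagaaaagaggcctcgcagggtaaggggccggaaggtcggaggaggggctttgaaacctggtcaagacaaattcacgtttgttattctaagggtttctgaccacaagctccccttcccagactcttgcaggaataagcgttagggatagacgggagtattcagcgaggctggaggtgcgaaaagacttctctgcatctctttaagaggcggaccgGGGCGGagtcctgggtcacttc
Both strands were searched for the E-box CACGTG, which Myc and its partner Max bind, for the AP-1 motif TGANTCA, which Fos and Jun proteins bind, and for the GC box. The window held no match to the E-box letters or to the AP-1 letters. Over all 32851 promoter windows of that length, 6.02% held the E-box, 6.75% the AP-1 motif and 32.7% the GC box, and only the GC box matched in the Slc3a2 window. Of the 7 entries none held the E-box letters, and 1 of 2 entries of Slc7a1 held the AP-1 letters. A match or its absence in 250 bases is a description of these letters only.

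Slc7a5, the light chain that carries leucine together with Slc3a2, was low and uneven. Its RNA was 15.9, 10.2, 0 and 1.63 CPM in HFD VAT, against 0, 11.1, 3.34 and 12.8 CPM in HFD LN. In lean mice it was 17.8, 9.38, 1.85 and 3.46 CPM in VAT, against 3.18, 0, 8.43 and 9.86 CPM in LN. In 3 libraries, 1 each of HFD VAT, HFD LN and lean LN, no read was counted, while in lean VAT the lowest library was at 1.85 CPM. The log2 fold change of Slc7a5 was 0.02 between HFD VAT and HFD LN (95% interval -4.19 to 4.23) and 0.60 between lean VAT and lean LN (-3.63 to 4.82), so differences of many-fold in either direction would not have been detected.

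Set per length, the chains of CD98 were far apart. Over the 16 libraries Slc3a2 averaged 148 ± 92.6 CPM per kb of merged exons and Slc7a5 1.94 ± 1.66 CPM per kb (SD, n = 16). In the 13 libraries with a count for the light chain, the level per kb of Slc3a2 over that of Slc7a5 was 60.8 to 459 in HFD VAT (3 libraries) against 17.2 to 49.2 in HFD LN (3 libraries), and 35.8 to 435 in lean VAT (4 libraries) against 20.0 to 74.2 in lean LN (3 libraries). The ratio was above 1 in all 13.

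Slc7a6 encodes another light chain that pairs with Slc3a2 and exchanges basic for neutral amino acids. It measured 146, 31.0, 97.0 and 30.4 CPM in HFD VAT, against 48.1, 55.5, 35.6 and 33.6 CPM in HFD LN, and 147, 26.8, 18.9 and 21.9 CPM in lean VAT, against 21.6, 9.95, 26.9 and 64.5 CPM in lean LN. The 3 highest values were those of the 3 VAT libraries with the most missing genes, replicates 1 and 3 of HFD VAT and replicate 1 of lean VAT. The log2 fold change was 0.82 on HFD (95% interval -0.83 to 2.47, edgeR adjusted p = 0.696) and 0.80 in lean mice (-0.85 to 2.45, edgeR adjusted p = 0.855). Without those 3 libraries it was -0.51 on HFD and -0.49 in lean mice, so the direction of both rested on them. Leaving out replicate 1 of lean VAT alone turned the lean value to -0.45.

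Slc1a5 encodes a sodium-dependent carrier of glutamine and other small neutral amino acids, and averaged 187 ± 50.3 CPM per kb (SD, n = 16). Per length it was the highest member in LN but not in VAT, where Slc3a2 was. It measured 778, 425, 601 and 513 CPM in HFD VAT, against 482, 614, 433 and 630 CPM in HFD LN, and the 2 groups overlapped (log2 fold change 0.10, 95% interval -0.46 to 0.66, edgeR adjusted p = 0.927). Lean VAT libraries held 184, 449, 373 and 454 CPM, against 670, 487, 600 and 585 CPM in lean LN. All 4 lean VAT values lay under all 4 lean LN values, but the gene did not pass the test (mean 365 ± 127 CPM in lean VAT and 585 ± 75.5 CPM in lean LN, log2 fold change -0.68, 95% interval -1.24 to -0.12, edgeR adjusted p = 0.242).

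For Slc1a5 between diets, the log2 fold change was 0.67 in VAT (95% interval 0.11 to 1.23, edgeR adjusted p = 0.534), with overlapping libraries, and -0.12 in LN (-0.67 to 0.44). The difference between these diet effects was 0.78 on the log2 scale, with an interval of -0.01 to 1.57 (edgeR adjusted p = 0.814). Lean VAT replicate 1, a library with many missing genes, held the lowest value. Without it the lean tissue difference was -0.46 and the diet difference in VAT 0.45 on the log2 scale. Without all 3 VAT libraries with the most missing genes the diet difference was 0.16.

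The glutamine and alanine carriers of the Slc38 family were called in no comparison. Slc38a1 averaged 165 ± 69.5 CPM in HFD VAT, 215 ± 52.5 in HFD LN, 188 ± 64.7 in lean VAT and 183 ± 12.7 in lean LN, with single libraries between 93.1 and 283 CPM. Slc38a2, which is also known to be raised when amino acids run short, averaged 168 ± 65.6 CPM in HFD VAT, 158 ± 61.4 in HFD LN, 178 ± 66.0 in lean VAT and 205 ± 63.1 in lean LN, with single libraries between 101 and 290 CPM (SD, n = 4 for each). For both genes the libraries overlapped in every comparison. The 95% intervals of the tissue differences were -1.05 to 0.27 and -0.62 to 0.70 on the log2 scale for Slc38a1 on HFD and in lean mice, and -0.69 to 0.86 and -0.98 to 0.57 for Slc38a2.

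Slc7a1, a carrier of arginine, lysine and ornithine, was among the scarce members. It measured 0.0218, 0.0454, 8.52 and 9.11 CPM in HFD VAT, against 10.5, 1.39, 5.58 and 23.9 CPM in HFD LN, and 21.3, 17.5, 1.23 and 33.6 CPM in lean VAT, against 2.46, 4.91, 1.14 and 4.12 CPM in lean LN. The first 2 HFD VAT libraries held 1 and 2 counts, while 3 of 4 lean VAT libraries were above all lean LN libraries. No comparison passed the test: the log2 fold change was -1.23 between tissues on HFD (95% interval -4.40 to 1.94, edgeR adjusted p = 0.789), 2.54 between tissues in lean mice (-0.76 to 5.85, edgeR adjusted p = 0.581) and -2.06 between HFD and lean VAT (-5.30 to 1.19, edgeR adjusted p = 0.942).

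Slc1a4, a carrier of alanine, serine, cysteine and threonine, was close to undetected. It had 13 counts in all 16 libraries together and none in 10 of them. The highest library was replicate 2 of lean LN, with 7 counts or 0.126 CPM, and every other library was at 3 counts or fewer. No fold change is given for it.

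**Figure D2:**
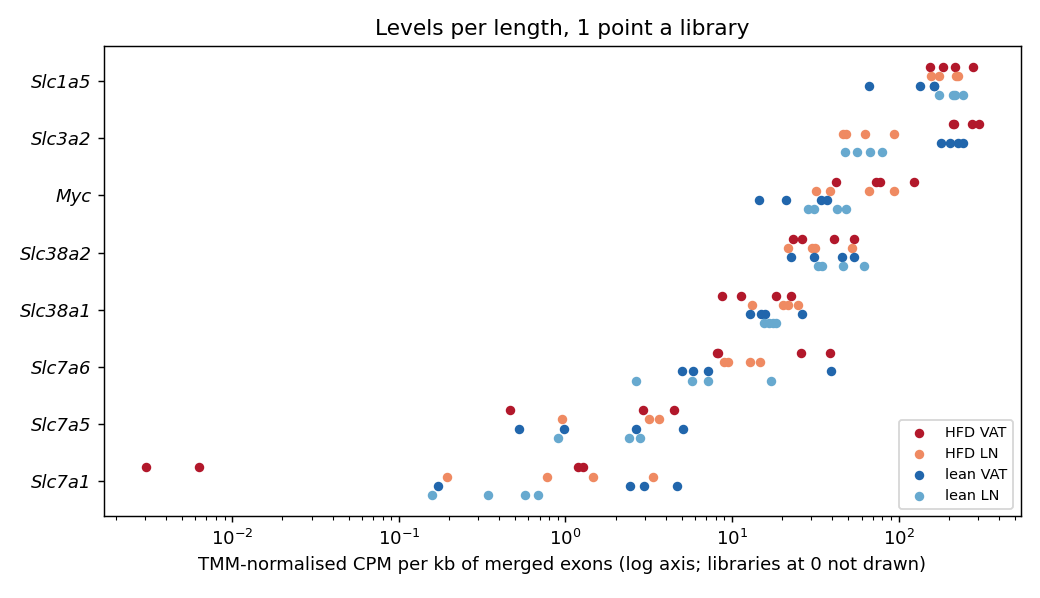
TMM-normalised CPM per kb of merged exons (horizontal log axis) for 8 of the genes, 1 point per library, coloured by group; libraries at 0 and Slc1a4 are not drawn. Slc1a5 and Slc3a2 have the highest averages over 16 libraries, 187 and 148 CPM per kb, with Slc3a2 split by tissue, and Slc7a5 and Slc7a1 lie lowest at 1.94 and 1.27.

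Per length the order of the means over 16 libraries was Slc1a5 at 187, Slc3a2 at 148, Myc at 50.4, Slc38a2 at 38.1, Slc38a1 at 17.5, Slc7a6 at 13.6, Slc7a5 at 1.94, Slc7a1 at 1.27 and Slc1a4 at 0.00389 CPM per kb. The order of the first pair depended on tissue. Slc3a2 averaged 251 CPM per kb and Slc1a5 210 in HFD VAT, and 214 and 132 in lean VAT, and Slc1a5 was the higher of them in 1 of 8 VAT libraries. In LN Slc1a5 was the higher in 8 of 8 libraries, at 195 CPM per kb beside 62.7 for Slc3a2 in HFD LN and 212 beside 62.7 in lean LN. Several other neighbours were not separated: Myc exceeded Slc38a2 in 10 of 16, Slc38a1 exceeded Slc7a6 in 11 of 16 and Slc7a5 exceeded Slc7a1 in 11 of 16. Other steps held in nearly all libraries. Slc3a2 exceeded Myc in 15 of 16, Slc38a2 exceeded Slc38a1 in 15 of 16, and Slc7a6 exceeded Slc7a5 in 16 of 16. The order per kb takes reads to scale with merged exon length, which was not tested, and the library chemistry is uncertain. Without that scaling Slc38a1 averaged 187.5 CPM and Slc38a2 177.6 CPM over the 16 libraries.

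Myc RNA did not differ detectably between tissues. It measured 304, 104, 180 and 190 CPM in HFD VAT, against 77.8, 162, 229 and 95.1 CPM in HFD LN, and these groups overlapped (log2 fold change 0.46, 95% interval -0.42 to 1.35, edgeR adjusted p = 0.671). In lean mice VAT libraries held 35.8, 84.1, 51.4 and 90.6 CPM, against 70.0, 119, 104 and 76.5 CPM in LN, with overlap again (log2 fold change -0.50, 95% interval -1.38 to 0.39, edgeR adjusted p = 0.785).

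Between diets in VAT, all 4 HFD libraries of Myc lay above all 4 lean libraries. The mean was 194 ± 82.7 CPM in HFD VAT and 65.5 ± 26.2 CPM in lean VAT (SD, n = 4 each), a 2.97-fold difference or a log2 fold change of 1.57 with a 95% interval of 0.67 to 2.47. The unadjusted p was 0.00226, and after adjustment over all 15675 genes edgeR gave 0.350, so Myc was not called. DESeq2 called it (log2 fold change 1.65, adjusted p = 0.00545), in a comparison in which DESeq2 called 4.91% of all genes tested. Without the 3 VAT libraries with the most missing genes the value was 0.98 (edgeR adjusted p = 0.729).

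In LN the diet difference of Myc was smaller and the libraries overlapped, at 141 ± 69.1 CPM in HFD LN and 92.4 ± 23.0 CPM in lean LN (log2 fold change 0.61, 95% interval -0.28 to 1.49). The diet effect in VAT exceeded that in LN by 0.96 on the log2 scale, with an interval of -0.29 to 2.21 (edgeR adjusted p = 0.953). A diet difference of Myc particular to VAT was thus not shown.

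**Figure D3:**
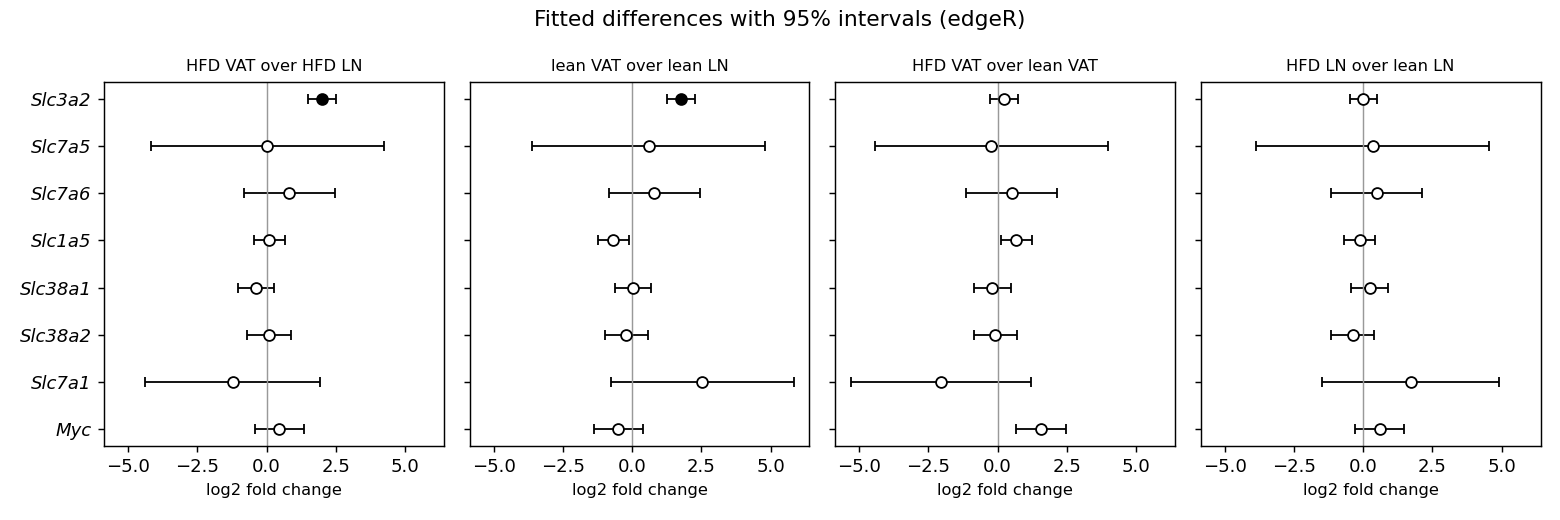
Fitted log2 fold change (horizontal axis) with its 95% interval for the 8 members tested, in the 4 pairwise comparisons; filled points passed an edgeR adjusted p of 0.05. Only Slc3a2 is filled, at 2.00 in HFD VAT over HFD LN and 1.77 in lean VAT over lean LN; the intervals of Slc7a5 and Slc7a1 are the widest.

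Counted together, 1 of the 8 members tested was called between tissues on HFD, where edgeR called 4.56% of all 15675 genes, and the same 1, Slc3a2, was called between tissues in lean mice, where 3.04% of all genes were. No member was called between diets in VAT (0.0574% of all genes), between diets in LN (0% of all genes) or for the difference between the diet effects (0.0191% of all genes). In the LN diet comparison the edgeR count of 0 genes stands beside 529 genes at an unadjusted p under 0.05, 236 calls by DESeq2 (1.51% of all genes) and 3 by limma voom, none of them a member. Groups without overlap were found for 1 member between tissues on HFD (15.2% of all genes), 2 between tissues in lean mice (12.9% of all genes), 1 between diets in VAT (3.22% of all genes) and 0 between diets in LN (2.26% of all genes). The 5 comparisons share libraries with each other.

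The median log2 fold change of the 8 members tested was 0.10 between tissues on HFD, where that of all genes tested was -0.10. It was 0.32 against 0.00 for all genes between tissues in lean mice, 0.07 against -0.10 between diets in VAT, and 0.29 against 0.00 between diets in LN.

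Likeness to other genes was measured as the root-mean-square distance between centred log2(CPM + 1) profiles over the 16 libraries, as a description across libraries that share tissue, depth and missing genes. The genes nearest to Slc3a2 among 8160 candidates were H2-T23 at 0.32, Cxcr6 at 0.33 and Gpr171 at 0.34 log2 units, where the median candidate was at 1.58. H2-T23 encodes the MHC class Ib molecule Qa-1 and Cxcr6 a chemokine receptor of tissue T cells, while Gpr171 encodes a G protein-coupled receptor. H2-T23 averaged 2538 ± 180 CPM in HFD VAT against 608 ± 18.4 in HFD LN, and 1977 ± 35.3 CPM in lean VAT against 668 ± 88.3 in lean LN.

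Of the members, Slc38a2 was the nearest to Slc3a2, at 1.11, and Slc7a5 was at 1.64, farther than the median candidate. A flat profile, with the same level in all libraries, would lie at 0.997 from Slc3a2, nearer than any tested member. Nearest to Slc1a5 were Hnrnpf, Actr3 and Ubash3a, at 0.21 to 0.27. Nearest to Myc were Ttc1, Srp19 and Rer1, at 0.53 to 0.55, and nearest to Slc7a5 were Ripor1, Abca7 and Usf2, at 0.76 to 0.93, so that no candidate was as near to Myc or Slc7a5 as H2-T23, Cxcr6 and Gpr171 were to Slc3a2. A flat profile would lie at 0.77 from Myc and 1.43 from Slc7a5, so distances of different members are not on the same footing.

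Among 33 other amino acid transporter genes, 18 were tested and edgeR called none in any comparison. At an unadjusted p under 0.05 there were 2 between tissues on HFD, 4 in lean mice, 4 between diets in VAT, 0 in LN and 2 for the difference between diet effects. Limma voom called 2 of the 18 lower in HFD VAT than in HFD LN, and DESeq2 called 2 lower in lean VAT than in lean LN and 2 higher in HFD VAT than in lean VAT. Over all 15675 genes edgeR called 4.56% between tissues on HFD, 3.04% in lean mice and at most 0.0574% in the other comparisons. DESeq2 called 1569 genes between tissues in lean mice and 769 between diets in VAT. Between tissues on HFD the total called by limma voom was within 1.5-fold of the 714 by edgeR. The median log2 fold change of the 18 was -0.01 between tissues on HFD and -1.23 in lean mice, with 9 and 5 of the 18 above 0. Between diets in VAT 15 of the 18 were above 0 with a median of 1.55, beside -0.10 for all genes tested. A rise of the list as a whole was not tested. In several genes the SD in HFD VAT exceeded the mean, as in Slc25a15 (10.9 ± 21.7 CPM), Slc43a1 (11.2 ± 22.45), Slc36a1 (3.50 ± 6.63) and Slc16a10 (1.45 ± 2.74). Many of the 18 were scarce: Slc7a11, which takes up cystine, averaged 15.7 ± 30.0 CPM in HFD VAT, 0.927 ± 0.244 in HFD LN, 1.19 ± 0.720 in lean VAT and 0.887 ± 0.238 in lean LN. The genes of this list are named here after their values were seen.

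In the list of 15 tested partners and antagonists of Myc, edgeR called 1 gene between tissues on HFD (4.56% of all genes) and 0 in lean mice (3.04%), where 2 were at an unadjusted p under 0.05. The gene called was Mxd1, whose protein competes with Myc for Max, at 1012 ± 335 CPM in HFD VAT against 27.1 ± 27.5 in HFD LN (37.4-fold, edgeR adjusted p = 0.0288). The lean groups, at 604 ± 92.2 CPM in lean VAT and 21.9 ± 11.0 CPM in lean LN, missed the threshold (edgeR adjusted p = 0.0528), and the tissue differences of Mxd1 on the 2 diets, 5.23 on HFD and 4.78 in lean mice on the log2 scale, were not shown to differ (0.44, edgeR adjusted p of 1.0 for the difference). The list had 1 call in lean mice with DESeq2, with limma voom, with the filter of 5 CPM, with only the groups compared and without HFD LN replicate 3. The HFD call was lost in 8 of 25 other settings. Among these were the fits with only the groups compared (adjusted p = 0.140) and without the 3 VAT libraries with the most missing genes (0.0907), and those without HFD VAT replicate 1 (0.0607) or 2 (0.0529) or without HFD LN replicate 1 (0.0883) or 4 (0.0754). Max, the shared partner, averaged 40.3 ± 14.2 CPM in HFD VAT, 31.8 ± 18.9 in HFD LN, 31.2 ± 3.80 in lean VAT and 38.7 ± 20.2 in lean LN.

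Of 32 ribosome biogenesis and other known Myc target genes, 2 rose in VAT on both diets and none fell by edgeR, which is near the shares of all genes called (4.56% on HFD and 3.04% in lean mice). Odc1, the first enzyme of polyamine synthesis, was 715 ± 139 CPM in HFD VAT against 29.7 ± 5.98 in HFD LN (24.1-fold, edgeR adjusted p = 2.71e-06), and 497 ± 155 CPM in lean VAT against 26.9 ± 9.85 in lean LN (18.5-fold, edgeR adjusted p = 6.67e-06). Eif5a, a translation factor that is modified with a polyamine, was 980 ± 182 CPM in HFD VAT against 476 ± 41.6 in HFD LN (2.06-fold, edgeR adjusted p = 0.00166), and 826 ± 205 CPM in lean VAT against 473 ± 26.6 in lean LN (1.75-fold, edgeR adjusted p = 0.0140). The lean call of Eif5a was lost with only the groups compared (adjusted p = 0.0688) and without lean LN replicate 3 (0.0536) or 4 (0.0627). The other 30 genes were not called, and the list's median log2 fold change was -0.16 between tissues on HFD and -0.41 in lean mice.

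Genes of the response to amino acid shortage, controlled by Atf4, gave 1 edgeR call on each diet out of 14 tested, beside 4.56% of all genes on HFD and 3.04% in lean mice. The calls were of 2 different genes, 1 lower and 1 higher in VAT, and both kept their direction on the other diet. Trib3, a pseudokinase gene of that response, had no count in any HFD VAT library, against 11.7, 34.9, 118 and 38.0 CPM in HFD LN. The HFD LN mean of 50.6 CPM was 714 times the level of 3 counts in the HFD VAT libraries. That ratio is not a bound on the fold change. Of genes with a median of 10 CPM or more in the rest of the group, HFD VAT libraries had 4.28% to 11.5% at 3 counts or fewer. The part of such missing values in the absence of Trib3 was not tested. By edgeR Trib3 was called lower in HFD VAT (adjusted p = 0.0271). That call was lost with limma voom and 8 other settings, among them leaving out any 1 of the 4 HFD VAT libraries (adjusted p of 0.0560 to 0.0619) or HFD LN replicate 3 (0.0552) or 4 (0.0534). In lean mice Trib3 was at 5.04 ± 5.92 CPM in VAT against 42.0 ± 27.0 in LN. That log2 fold change of -3.06 was not called (edgeR adjusted p = 0.621). Cebpb, a transcription factor gene, rose in lean VAT to 52.0 ± 10.5 CPM, against 8.71 ± 3.21 CPM in lean LN (5.96-fold, edgeR adjusted p = 0.0369), and lost the call in 14 of 25 other settings, among them leaving out any 1 of the 8 lean libraries, HFD VAT replicate 4 or HFD LN replicate 2 or 3 (adjusted p of 0.0516 to 0.109). On HFD Cebpb was at 36.3 ± 16.2 CPM in VAT against 10.3 ± 5.97 in LN. That log2 fold change of 1.82 was not called (edgeR adjusted p = 0.115). For neither gene were the tissue differences on the 2 diets shown to differ (edgeR adjusted p = 0.51 for Trib3, and no call for Cebpb).

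Of 29 genes tested for the mTOR complex and amino acid sensing, edgeR called 0 between tissues on either diet, with 2 at an unadjusted p under 0.05 on HFD and 1 in lean mice, while DESeq2 and limma voom each called 1 on HFD and 1 in lean mice. Of 23 cytosolic aminoacyl-tRNA synthetase genes edgeR also called 0, with 2 at an unadjusted p under 0.05 on HFD and 5 in lean mice, while DESeq2 called 1 on HFD and limma voom 2 in lean mice. Of 23 glutamine, serine and one-carbon enzyme genes, edgeR called only Gclc, which fell in VAT on both diets. Over all 15675 genes edgeR called 4.56% on HFD and 3.04% in lean mice, and 0 or 1 call per list is near those shares. DESeq2 called 2578 of all genes on HFD and 1569 in lean mice, and limma voom 1350 in lean mice. The limma voom total on HFD was within 1.5-fold of the 714 by edgeR. Gclc makes the precursor of glutathione, and was 77.3 ± 39.7 CPM in HFD VAT against 236 ± 42.0 in HFD LN (3.05-fold lower, edgeR adjusted p = 0.0248), and 69.1 ± 29.8 CPM in lean VAT against 195 ± 38.4 in lean LN (2.82-fold lower, edgeR adjusted p = 0.0459). The HFD call was lost in 9 and the lean call in 15 of 25 other settings. Leaving out HFD VAT replicate 1 or 3 or HFD LN replicate 1, 3 or 4 ended the HFD call (adjusted p of 0.0517 to 0.0705), and leaving out lean VAT replicate 1, 3 or 4, any 1 lean LN or HFD LN library, or HFD VAT replicate 2 ended the lean call (adjusted p of 0.0539 to 0.142).

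Of 20 receptor-induced activation genes tested, 5 rose in VAT on HFD (4.56% of all genes called) and 6 in lean mice (3.04%), and none fell by edgeR. On HFD DESeq2 called 9 and limma voom 8, and in lean mice limma voom called 11, each of them higher in VAT. Over all 15675 genes DESeq2 called 2578 on HFD and limma voom 1350 in lean mice, beside 714 and 476 by edgeR. On HFD the total called by limma voom was within 1.5-fold of the 714 by edgeR. The activation marker Cd69, which also holds cells in tissue, was 10.3-fold higher on HFD (1113 ± 66.9 CPM in VAT against 108 ± 29.5 in LN, edgeR adjusted p = 3.46e-06) and 5.17-fold higher in lean mice (635 ± 147 CPM in VAT against 123 ± 32.7 in LN, edgeR adjusted p = 6.52e-05). Junb, a subunit of AP-1, was 3.74-fold higher on HFD (1653 ± 77.3 CPM in VAT against 442 ± 10.9 in LN, edgeR adjusted p = 3.45e-05) and 3.89-fold higher in lean mice (1857 ± 461 CPM in VAT against 477 ± 120 in LN, edgeR adjusted p = 4.3e-05). The others called were Fos, Jun and Egr1 on both diets and Il2ra in lean mice, named here after their values were seen. The median log2 fold change of the 20 was 1.87 on HFD and 2.04 in lean mice, with 17 and 18 of the 20 above 0. Among the uncalled genes below 0, named after their values were seen, were Nr4a3 at -2.52 on HFD (edgeR adjusted p = 0.675) and Tfrc at -1.91 in lean mice (edgeR adjusted p = 0.833), and Nr4a1, an immediate response gene of the receptor, was at -0.02 on HFD (edgeR adjusted p = 1.0).

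**Figure D4:**
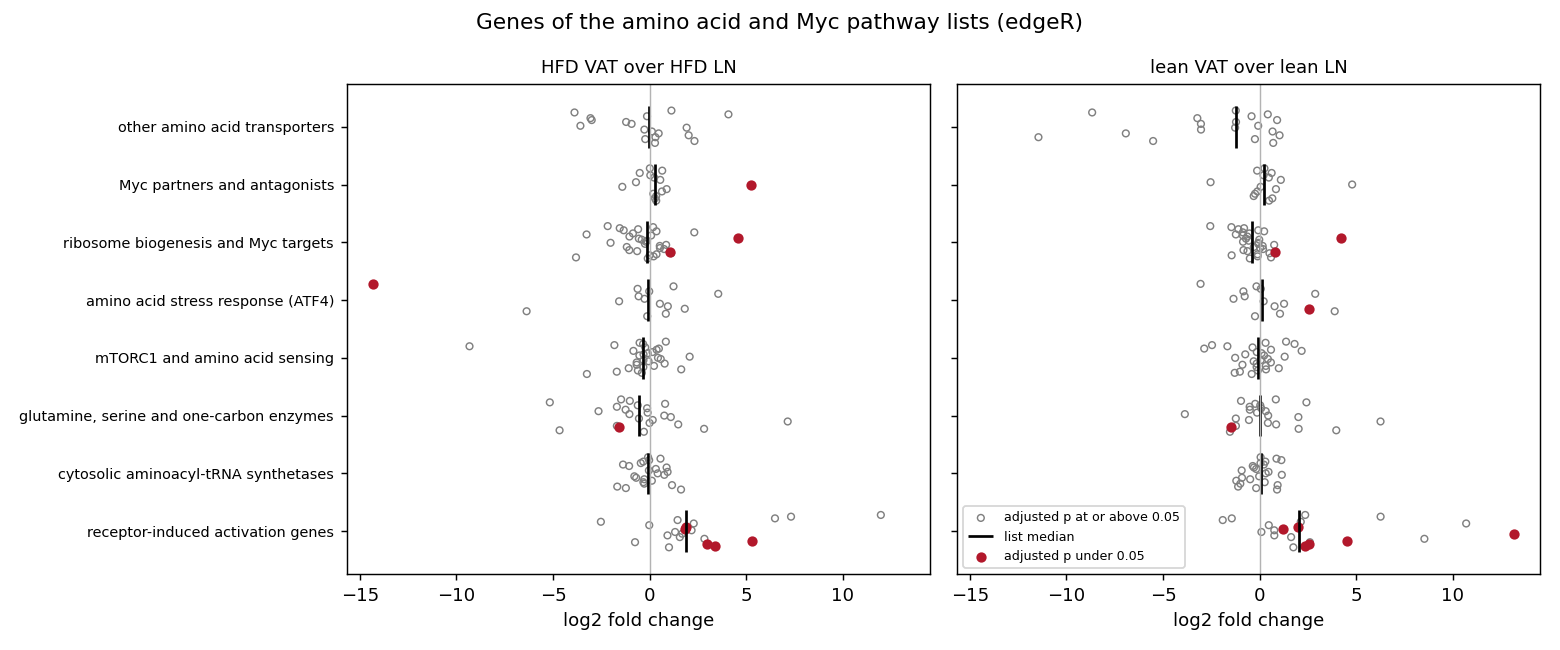
Log2 fold change of each tested gene (points) of 8 lists in HFD VAT over HFD LN (left) and lean VAT over lean LN (right); filled red points passed an edgeR adjusted p of 0.05 and the black bar is the list's median. The activation list has medians of 1.87 and 2.04, while those of the aminoacyl-tRNA synthetases are -0.08 and 0.04.

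By edgeR, no gene of the 8 lists was called between HFD and lean mice in either tissue or for the difference between the diet effects. Of all genes, edgeR called 0.0574% between diets in VAT, 0% in LN and 0.0191% for the difference. At most 2 genes of a list were called between diets in VAT in any of the 25 other settings. In that comparison DESeq2 called 4.91% of all genes.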

How the data were processed

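RNA of OT-I T cells was measured in 16 libraries. The authors deposited a table of raw counts, whole and not normalised, with 54456 gene rows and 1 column for each of the 16 libraries. The tools named are kallisto 0.42.4 and DESeq2 and the build is GRCh38, per the submitters' processing notes. GRCh38 is a human build, although the gene names are those of mouse. The labels' protocols describe human synovial fibroblasts and name more than 1 library kit and sequencer, so chemistry and read length are uncertain, and how kallisto's estimates became whole counts is not given in the sources used here.

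Counts were tested with edgeR 4.0.16 in R 4.3.3 (filterByExpr, TMM, 1 robust quasi-likelihood fit of all 4 groups, common dispersion 1.52), with Benjamini-Hochberg adjustment over 15675 genes and a threshold of 0.05. Intervals of 95% were approximated from the log2 fold change and its F value. Levels per kb use merged exons of the basic protein-coding transcripts of the GENCODE mouse annotation. Likeness used a pseudocount of 1 and candidates with a mean of 10 CPM or more. All 9 members are reported, and from each of 8 pathway lists up to 2 genes with the smallest adjusted p per direction and comparison. Members and lists were chosen with earlier results of these data known. In the lists, 2 genes were not in the table under the names searched.

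The alternatives tried were DESeq2 1.42.0, voom with quality weights (limma 3.58.1), normalisation by RLE or upper quartile, testing without a filter or with one of 5 CPM in 4 libraries, fitting only the groups compared, a replicate block, leaving out each library, and leaving out the 3 VAT libraries with the most missing genes. Fits were tested on simulated counts. Intervals and floors cover counting error only where they come from counts of 1 library, and reads from amplified cDNA are not independent molecules.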

Additional observations from a re-analysis of the deposited data

Results flagged for a closer look

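Dixon's gap test was applied to 58 sets of 4 libraries (1 gene in 1 group each), and chance marks about 1 in 20 such sets. These sets do not cover every gene of the text in every group. It marked 2. Slc7a6 was 146.5 CPM in replicate 1 of lean VAT, where the other 3 libraries were at 18.9 to 26.8 CPM, a gap of 0.938 of the group's range. That library is also the one with the largest share of missing genes, 13.3%, and the part of this in the Slc7a6 value was not tested. Eif5a was 414.0 CPM in replicate 4 of HFD LN, where the other 3 libraries were at 488 to 502 CPM, a gap of 0.847 of the range. The direction of the Eif5a tissue difference on HFD held without that library.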

How the results depend on the processing

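Over 25 other settings, the call of Slc3a2 between tissues held in each setting on both diets. All 8 tested members were followed between tissues and between diets in VAT. Between diets in LN and for the difference between diet effects, only Slc3a2, Slc1a5 and Myc were followed. Of 747 values of these members under alternatives, 683 kept direction and side of the threshold, 1 gained a call (Myc between diets in VAT with DESeq2, which made the number of members called there 1) and 63 changed sign, all of them of values that were not called in either setting. The cause of these changes was not tested.

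The number of all genes called depended on the tool. DESeq2 called 2578 genes between tissues on HFD, 1569 in lean mice, 769 between diets in VAT, 236 in LN and 635 for the difference between diet effects. Limma voom called 1350 in lean tissue, 32 between diets in VAT, 3 in LN and 6 for the difference, and moved the median log2 fold change of all genes on HFD from -0.10 to -0.34. Without a filter the counts were 441 between tissues on HFD, 2 between diets in VAT and 1 for the difference, and with only the groups compared 0 between diets in VAT. The difference had 1 call with upper quartile normalisation and 1 with the filter of 5 CPM. Without the 3 VAT libraries with the most missing genes there were 62 between diets in VAT and 46 for the difference. Leaving out single libraries gave 483 to 886 between tissues on HFD, 325 to 492 in lean mice, 3 to 40 between diets in VAT (40 without HFD VAT replicate 4, 23 without lean VAT replicate 1), 0 to 1 in LN and 0 to 24 for the difference.

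Deviations of same-numbered libraries from their group means had correlations of -0.10 to 0.04, over 16 pairs within a diet or within a tissue. In 5 of the 16 pairs the nearest library was the one of the same number. Pairs between diets could not share an animal, and the spread between libraries can hide a pairing. Whether same-numbered libraries of a diet shared an animal therefore cannot be told from these values. With the replicate block 505 genes were called between tissues on HFD, 337 in lean mice, 1 between diets in VAT and 0 for the difference. The block also gave log2 fold changes of -0.55 for Slc7a5 on HFD and -0.20 in lean tissue, -0.029 for Slc38a1 in lean tissue and -0.024 for Slc3a2 between diets in LN.

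Signs changed as follows, in log2 fold change. Between tissues on HFD, Slc1a5 was -0.006 with voom and -0.22 without the 3 VAT libraries, Slc38a2 was -0.028, Slc7a6 -0.51 and Slc7a5 -0.22 without them, and Slc7a5 was -0.00 with upper quartile and -0.01 with no filter. In lean tissue, Slc38a1 was -0.051 with RLE and with DESeq2, -0.038 with no filter, -0.21 with voom and -0.26 without the 3 libraries, Slc7a6 was -0.22 with voom and -0.49 without the 3, and Slc7a5 was -0.17 without the 3. Between diets in VAT, Slc38a2 was 0.001 with RLE and with DESeq2, and without the 3 libraries Slc3a2 was -0.062, Slc38a1 0.051 and Slc7a5 0.29. For Slc3a2 between diets in LN it was -0.014 with RLE and with DESeq2, -0.009 with only the groups compared, -0.046 with voom, -0.001 with no filter and -0.002 without the 3, where its difference between diet effects was -0.06.

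With single libraries left out, the range between tissues on HFD was -0.073 to 0.23 for Slc1a5, -0.17 to 0.39 for Slc38a2 and -0.79 to 0.54 for Slc7a5. In lean tissue it was -0.42 to 0.003 for Slc38a2, -0.23 to 0.16 for Slc38a1, -0.45 to 1.44 for Slc7a6 and -0.14 to 1.05 for Slc7a5. Between diets in VAT it was -0.34 to 0.14 for Slc38a2, -0.45 to 0.077 for Slc38a1, -0.019 to 1.76 for Slc7a6 and -1.03 to 0.50 for Slc7a5, and between diets in LN -0.26 to 0.14 for Slc3a2. For the 13 results of named genes of the lists, 267 values kept their call and 58 lost it, in the settings given with each gene. Slc1a4, Slc7a1 and Slc7a5 had libraries at or under 3 counts. These were not the shallow ones throughout, since the deepest HFD LN library had no count of Slc7a5 and the deepest HFD VAT library 1 count of Slc7a1, and the part of depth was not tested.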

Other observations

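Among the other amino acid transporters, several uncalled genes had tissue means that lay apart on at least 1 diet. They are given as values chosen after they were seen. Slc6a19, a carrier of neutral amino acids best known from gut and kidney, was 28.6 ± 33.1 CPM in HFD VAT against 239 ± 75.1 in HFD LN, and 20.0 ± 18.5 CPM in lean VAT against 187 ± 48.7 in lean LN (SD, n = 4 each). Its log2 fold change was -3.06 on HFD (edgeR adjusted p = 0.413) and -3.23 in lean mice (edgeR adjusted p = 0.514). Slc25a22, a mitochondrial glutamate carrier, was 116 ± 63.4 CPM in HFD VAT against 28.5 ± 7.31 in HFD LN, and 111 ± 74.5 CPM in lean VAT against 54.6 ± 26.0 in lean LN, with edgeR adjusted p of 0.402 and 0.896. Slc38a9, a lysosomal arginine sensor of the mTOR pathway, was 6.86 ± 12.2 CPM in HFD VAT against 82.1 ± 32.1 in HFD LN (edgeR adjusted p = 0.230), while in lean mice it was 45.9 ± 59.9 CPM in VAT against 48.4 ± 12.9 in LN (edgeR adjusted p = 1.0). None of these differences passed the test.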
